A study of Rattus norvegicus with 2 samples.

Results

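Of the 65 genes described here, 63 encode ligands or receptors of the 4 classical axon guidance families, and 2 share only letters with them. All 65 were measured in adult male Sprague-Dawley rats in the spinal cord (SC) at lumbar levels L4-L6. They were taken by symbol, as those that begin with Sema, Plxn, Epha, Ephb, Efna, Efnb, Unc5, Ntn or Ntng, or with Slit or Robo and a digit, together with Dcc, Nrp1 and Nrp2. They were 65 of 18171 genes that the array measured with a probe set assigned to a single gene. In the chronic constriction injury (CCI) group the left sciatic nerve was tied loosely with 4 ligatures, and in the Sham group it was exposed without ligatures. On day 10 after surgery the RNA of 3 rats of each group was mixed, and 1 Affymetrix Rat Gene 2.0 ST array was run for each mixture. Every value below is therefore a single log2 expression value per group, with no replicate, error or test, and each difference is CCI minus Sham between 2 mixtures. The labels do not say whether the tissue came from the injured side alone or from both sides, so that an uninjured side may be part of every value. The samples were bulk tissue, in which fewer cells of a type and less RNA per cell cannot be told apart.

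Guidance molecules steer growing axons by attraction or repulsion, and many are kept in the adult SC, where they act on synapses, glia and vessels. Semaphorins signal through plexins, the secreted class 3 mostly with a neuropilin as co-receptor. Ephrins are membrane-bound ligands of the Eph receptor tyrosine kinases, Slits are secreted ligands of Robo receptors, and netrins attract through Dcc or repel through Unc5 receptors. The netrin-G proteins are a separate branch that is anchored in the membrane by a lipid, does not bind Dcc or Unc5, and meets partners of the Lrrc4 family across synapses. By family, the members were 19 semaphorins, 6 plexins and neuropilins, 7 ephrins, 13 Eph receptors, 3 Slits, 4 Robos, 4 netrins, 2 netrin-G genes and 5 netrin receptors. The remaining 2, Unc50 and Unc5cl, share only letters with the Unc5 receptors. Unc50 is related to a worm gene for acetylcholine receptor trafficking, and Unc5cl encodes a death-domain protein of inflammatory signalling.

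Promoter sequences are shown for the members at both ends of the range of differences, Ntng1 and Sema3e as the lowest in CCI and Epha8 as the highest. Each covers 250 bases before and 50 bases after the gene's start, from RefSeq on the GRCr8 assembly. They are printed 5′ to 3′ on the gene's strand. Capitals mark matches, on either strand, to the C/EBP motif TTNNGNAA, the Egr motif GCGNGGGCG, the E-box CACGTG or the GC box GGGGCGGGG. Ntng1 lies at chr2:200514982-200515281, Sema3e at chr4:21510325-21510624 and Epha8 at chr5:154476917-154477216, all on the minus strand.
Ntng1: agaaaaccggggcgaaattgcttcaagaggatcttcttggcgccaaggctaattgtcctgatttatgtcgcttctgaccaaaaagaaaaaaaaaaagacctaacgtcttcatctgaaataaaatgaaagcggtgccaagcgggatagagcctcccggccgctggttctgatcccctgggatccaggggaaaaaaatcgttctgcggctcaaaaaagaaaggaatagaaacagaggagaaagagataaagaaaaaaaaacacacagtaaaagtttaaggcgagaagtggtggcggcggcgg
Sema3e: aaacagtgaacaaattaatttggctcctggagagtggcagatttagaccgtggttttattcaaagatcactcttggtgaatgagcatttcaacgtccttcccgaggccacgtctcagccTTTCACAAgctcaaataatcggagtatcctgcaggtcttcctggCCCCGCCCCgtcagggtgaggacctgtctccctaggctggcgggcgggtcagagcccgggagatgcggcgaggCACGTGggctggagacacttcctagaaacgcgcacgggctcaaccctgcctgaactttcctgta
Epha8: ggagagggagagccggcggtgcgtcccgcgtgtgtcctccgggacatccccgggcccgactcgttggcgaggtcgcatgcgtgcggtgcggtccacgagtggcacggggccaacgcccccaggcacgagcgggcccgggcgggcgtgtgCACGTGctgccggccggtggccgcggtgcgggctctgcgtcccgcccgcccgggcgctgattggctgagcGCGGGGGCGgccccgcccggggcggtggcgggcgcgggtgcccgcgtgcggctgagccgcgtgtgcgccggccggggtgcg
The Ntng1 window held none of the 4 motifs and had a GC content of 45.3%. Sema3e (55.3% GC) held 1 C/EBP, 1 E-box and 1 GC box match, and Epha8 (81.0% GC) held 1 Egr and 1 E-box match. Promoters were found for 52 of the 65 members, and their median GC content was 60.7%, against 51.7% over all 33469 promoters. Of these 52, the C/EBP motif was in 25.0%, against 41.3% of all promoters. The Egr motif was in 9.62%, against 4.98%, the E-box in 9.62%, against 6.42%, and the GC box in 19.2%, against 9.73%. The GC box and Egr motifs consist mainly of G and C, whereas the fixed letters of the C/EBP motif are mainly A and T. The 33469 promoters were neither limited to measured genes nor matched to the members in GC content. No motif overlapped another in the sequences printed. These matches describe letters only.

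Guidance genes differed between the CCI and the Sham array mostly by small amounts, and more of them were lower than higher in CCI. Ntng1 (netrin-G1) was the only member past the study's fold threshold of 1.5, at 1.85-fold lower. Of the 65 members, 0 were higher past 1.5-fold, against 1.64% of all genes, and 1 (1.54%) was lower past it, against 1.14% of all genes. This share is near that of all genes. Below Sham by any amount were 47 members (72.3%), against 52.4% of all genes, with a median difference of -0.14, against -0.01 over all genes. Past 1.2-fold, 19 members (29.2%) were lower in CCI, against 13.0% of all genes, and 7 (10.8%) were higher, against 11.6%. The SD of the differences was 0.28 over members and 0.26 over all genes.

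**Figure D1:**
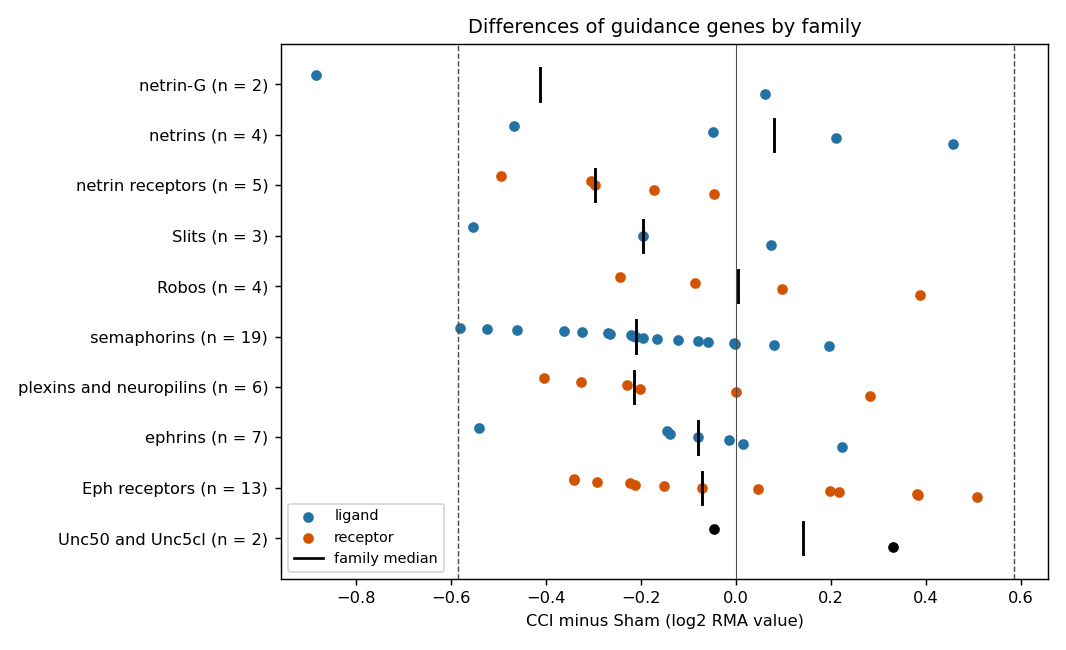
Difference of each guidance gene between the CCI and the Sham array (horizontal axis, CCI minus Sham, log2) by family (vertical axis), with points for genes, vertical bars for family medians and dashed lines at 1.5-fold. Ntng1, at -0.89, is the single point past a dashed line, and all 5 netrin receptors lie below 0.

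The direction differed with the level of the gene's signal. Of the 45 members at or above the median level of all genes (5.83), 41 (91.1%) were below Sham, against 58.3% of all genes in that range. Their median was -0.22, against -0.04. Of these 45, 18 (40.0%) were lower past 1.2-fold, against 13.7% of genes in the range, and 1, Nrp1, was higher past it, against 6.53%. The 20 members below the median level had a median of 0.15, against 0.02 over all genes below it, and 14 of them (70.0%) were above Sham, against 53.5% of all genes below it. Across the 65 genes, which are not replicates and share 1 pair of arrays, Spearman's rho of the difference with the mean level was -0.46, against -0.10 over all genes. As a gauge of the lowest measurable signal, the 95th percentile of 1344 genes for olfactory or vomeronasal receptors, whose known role lies in the nose, was 4.36 in CCI and 4.44 in Sham. Signals of 61 members exceeded it in both arrays.

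**Figure D2:**
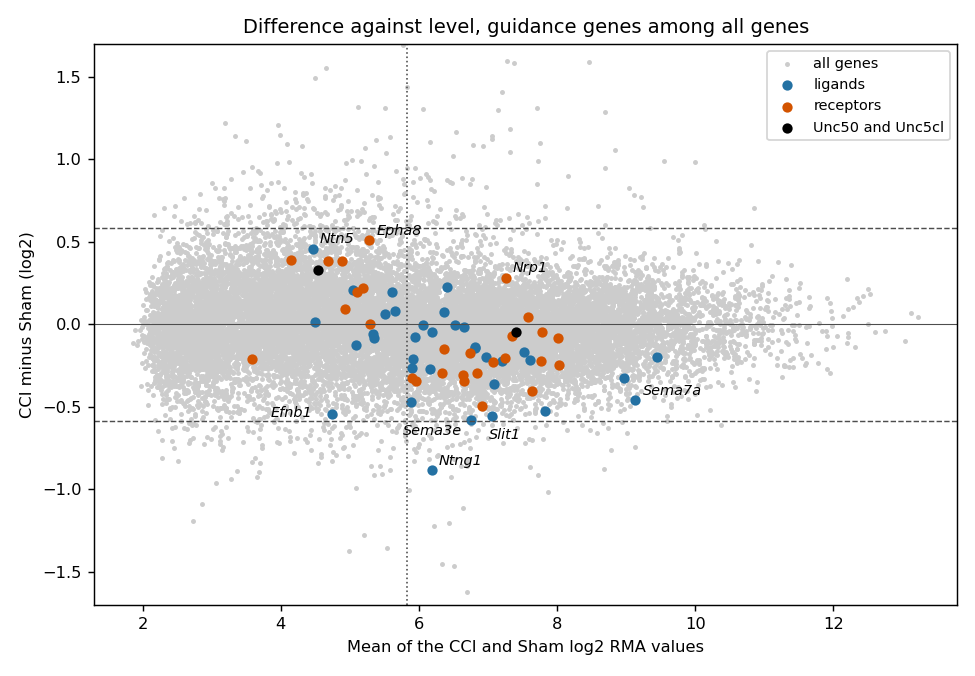
Difference (vertical axis, CCI minus Sham, log2) against the mean log2 RMA value of both arrays (horizontal axis) for guidance ligands and receptors over all genes in grey, with dashed lines at 1.5-fold and a dotted line at the median level of 5.83. Members to the right of the dotted line lie mostly below 0, those to its left mostly above it; 8 genes with differences beyond 1.7 in size are outside the plotted range.

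Among the netrin-G genes, Ntng1, whose protein netrin-G1 binds Lrrc4c (NGL-1), was at 5.74 in CCI and 6.63 in Sham, a difference of -0.89. It was the 24th lowest of all 18171 genes. Its paralogue Ntng2, the partner of Lrrc4 (NGL-2), was at 5.54 in CCI and 5.47 in Sham, 1.04-fold higher. The 2 netrin-G genes thus differed from Sham in opposite directions, and only Ntng1 by more than a small amount. The partners, which are outside the chosen families, differed little, with Lrrc4c at 6.66 in CCI and 6.83 in Sham and Lrrc4 at 7.29 in CCI and 7.41 in Sham.

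Among the netrins, Ntn4, a laminin-like netrin of basement membranes, was at 5.65 in CCI and 6.12 in Sham (1.38-fold lower). The floor-plate attractant Ntn1 was at 6.17 in CCI and 6.21 in Sham. The other netrins were higher in CCI, Ntn3 at 5.15 in CCI and 4.94 in Sham, and Ntn5 at 4.69 in CCI and 4.23 in Sham. Because the Sham value of Ntn5 lay under the receptor background level, its fold is given only as a bound, at least 1.19-fold higher. All 5 netrin receptors were below Sham, against 52.4% of all genes, with a median of -0.30. All 5 were at or above the median level, where 58.3% of genes were below Sham, with a median of -0.04. The repulsive receptor Unc5d, which also binds Flrt2, was lowest, at 6.67 in CCI and 7.16 in Sham (1.41-fold lower). Unc5c was 1.24-fold and Unc5a 1.23-fold lower. The attractive receptor Dcc was at 6.65 in CCI and 6.82 in Sham (1.13-fold lower). Unc5b was nearly level, at 7.76 in CCI and 7.81 in Sham, and its difference of -0.05 turned to just above 0 after the trend of differences with level was subtracted. A second probe set of Unc5b was under the receptor background level in both arrays.

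Of the Slits, Slit1 was the third lowest member, at 6.78 in CCI and 7.34 in Sham (1.47-fold lower). Slit2 was at 6.87 in CCI and 7.06 in Sham (1.15-fold lower), whereas Slit3 was at 6.40 in CCI and 6.33 in Sham (1.05-fold higher). Their neuronal receptors differed less than Slit1, Robo1 being 1.18-fold lower (7.90 in CCI and 8.15 in Sham) and Robo2 1.06-fold lower (7.97 in CCI and 8.05 in Sham). Robo4, a Robo of endothelial cells, was at 4.98 in CCI and 4.88 in Sham. Robo3, the divergent family member of commissural axons, was under the receptor background level in both arrays, at 4.34 in CCI and 3.95 in Sham, and is given without a fold.

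Of 19 semaphorins, 17 (89.5%) were below Sham, against 52.4% of all genes, and the family median was -0.21. Most semaphorins were at or above the median level, where 58.3% of genes were below Sham. Past 1.2-fold, 7 (36.8%) were lower, against 13.0% of all genes. The 2 above Sham were Sema3b, at 5.71 in CCI and 5.52 in Sham, and Sema6c, at 5.69 in CCI and 5.61 in Sham. The median stayed between -0.22 and -0.16 with the trend subtracted, with a floor on level or with probe sets averaged. Among the 17, Sema4b and Sema4c were below Sham by under 0.01 and turned to 0.04 and 0.05 with the trend subtracted.

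Of the secreted class 3, Sema3e was lowest, at 6.46 in CCI and 7.04 in Sham. Its protein signals through Plxnd1 without a neuropilin. At 1.496-fold lower, with a difference of -0.581, it lay just short of the threshold, which is 0.585 on this scale. Sema3a, which collapses sensory growth cones through Nrp1, was at 6.90 in CCI and 7.26 in Sham (1.29-fold lower), and Sema3d was 1.201-fold lower. Sema3c was 1.12-fold, Sema3g 1.09-fold and Sema3f 1.04-fold lower. In the RefSeq gene order, Sema3a and Sema3d are direct neighbours, Sema3c and Sema3e have 4 protein-coding genes between them, and Sema3b and Sema3f have 3. Both genes of the first 2 pairs were below Sham, whereas Sema3b was above and Sema3f below it.

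Among the membrane-bound semaphorins, Sema5a was at 7.57 in CCI and 8.09 in Sham (1.44-fold lower) and Sema5b at 5.80 in CCI and 6.01 in Sham. Sema7a, which is lipid-anchored and binds Plxnc1 and integrins, was at 8.90 in CCI and 9.37 in Sham (1.38-fold lower). Sema6d was at 8.81 in CCI and 9.13 in Sham (1.25-fold lower) and Sema6b was 1.16-fold lower. Differences were smaller in class 4, where the 6 genes ran from -0.27 (Sema4g) through -0.08 (Sema4f) to just below 0 (Sema4c). Sema4d, a semaphorin of oligodendrocytes and lymphocytes, was at 9.35 in CCI and 9.55 in Sham. Its second probe set was at 7.99 in CCI and 8.21 in Sham, so that both gave a like difference, -0.19 and -0.23. Sema4a was at 7.09 in CCI and 7.32 in Sham.

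All 4 plexins measured were at or below the Sham value, whereas 52.4% of all genes were below Sham. Every plexin except Plxnd1 had a mean signal above 5.83, a range with 58.3% of genes below Sham. Plxna2, a receptor of class 6 and of neuropilin-bound class 3 semaphorins, was at 7.44 in CCI and 7.84 in Sham (1.32-fold lower). Plxna3 was at 5.74 in CCI and 6.07 in Sham (1.25-fold lower), and Plxnb3, a receptor of Sema5a, at 6.95 in CCI and 7.18 in Sham (1.17-fold lower). Plxnd1 was level at 5.30 in both arrays, while its ligand Sema3e was 1.496-fold lower. The neuropilins differed in opposite directions. Nrp1, which serves class 3 semaphorins and the vascular growth factor Vegfa, was at 7.40 in CCI and 7.11 in Sham (1.22-fold higher). Nrp2 was at 7.15 in CCI and 7.35 in Sham (1.15-fold lower). Plxna1, Plxna4, Plxnb1, Plxnb2, Plxnc1, Sema6a, Efna3 and Ephb4 were not analysed here, since no probe set was assigned to one of them alone.

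**Figure D3:**
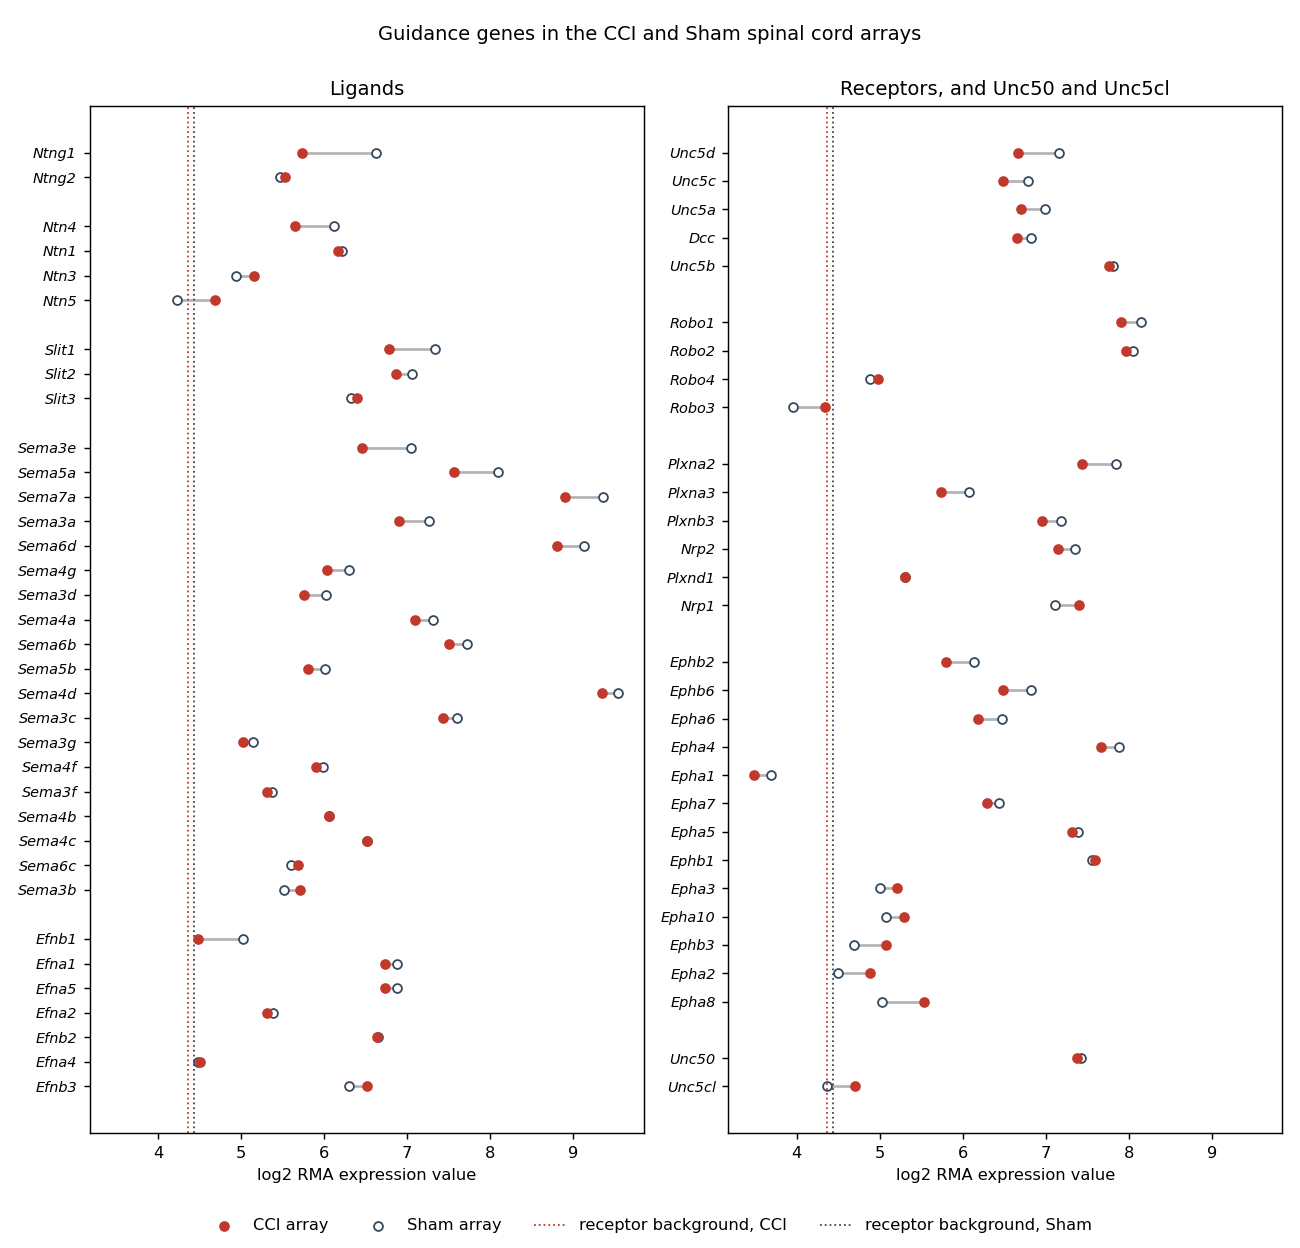
Log2 RMA value of each guidance gene in the CCI array (filled) and the Sham array (open), joined by a line, for ligands (left) and receptors (right), with dotted lines at the olfactory and vomeronasal receptor background of 4.36 in CCI and 4.44 in Sham. The longest line is that of Ntng1, at 5.74 in CCI and 6.63 in Sham.

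The median of the 7 ephrins was -0.08. Efnb1, a transmembrane ephrin, was at 4.48 in CCI and 5.02 in Sham (1.46-fold lower), and its CCI value was close to the receptor background level of 4.36. Efnb3, which in mice forms a midline barrier to corticospinal axons in the SC, was higher, at 6.52 in CCI and 6.30 in Sham (1.17-fold). Efnb2 was at 6.64 in CCI and 6.65 in Sham. The lipid-anchored ephrin-A genes differed little, with Efna1 and Efna5 both 1.10-fold lower, Efna2 1.06-fold lower and Efna4 at 4.50 in CCI and 4.49 in Sham.

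The 13 Eph receptors had no common direction, with 7 below and 6 above Sham and a median of -0.07. Among the 7 of them at or above the median level of all genes, 6 were below Sham, against 58.3% of all genes in that range. Ephb2, an Eph receptor of excitatory synapses, was at 5.79 in CCI and 6.13 in Sham. Ephb6, which lacks kinase activity, was at 6.48 in CCI and 6.82 in Sham. Both were 1.27-fold lower. Epha6 was at 6.18 in CCI and 6.48 in Sham (1.22-fold lower). Epha4, a receptor of motor and corticospinal axons that binds ephrins of both types, was at 7.66 in CCI and 7.88 in Sham (1.17-fold lower). Epha7 was 1.11-fold and Epha5 1.05-fold lower, whereas Ephb1 was 1.03-fold higher.

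Of the 7 members higher in CCI past 1.2-fold, 3 were Eph receptors, all below the median level, and 3 others (Ntn5, Robo3 and Unc5cl) had 1 or both values under the receptor background. Epha8 was at 5.54 in CCI and 5.03 in Sham, 1.42-fold higher, the largest difference above Sham among the 65 genes. Epha2, best known from epithelium, was at 4.88 in CCI and 4.50 in Sham (1.30-fold higher). Its Sham value was close to the receptor background level of 4.44. Ephb3 was at 5.07 in CCI and 4.69 in Sham (1.30-fold higher). Epha10 was 1.16-fold and Epha3 1.15-fold higher. Epha1 was under the receptor background level in both arrays, at 3.48 in CCI and 3.69 in Sham. Outside the guidance families, Unc5cl was at 4.70 in CCI and 4.37 in Sham, at least 1.196-fold higher, and Unc50 was at 7.37 in CCI and 7.42 in Sham.

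Set out as ligands and receptors, both roles had similar medians. Of 35 ligands, 27 (77.1%) were below Sham with a median of -0.14. Of 28 receptors, 19 (67.9%) were below Sham with a median of -0.16, and of all genes 52.4% were. Past 1.2-fold, 11 ligands (31.4%) and 8 receptors (28.6%) were lower in CCI, against 13.0% of all genes. Higher past it were 1 ligand (2.86%) and 5 receptors (17.9%), against 11.6% of all genes. The difference between the roles was not tested.

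Other guidance genes had a like median, whereas that of the intracellular effectors was near 0. Of 28 further guidance ligands, receptors and adhesion molecules, 20 were below Sham with a median of -0.15, and 0 passed 1.5-fold in either direction. Past 1.2-fold, 6 were lower and 2 higher. Of all genes, 52.4% were below Sham, 13.0% were lower past 1.2-fold and 11.6% were higher past it. Past 1.5-fold, 1.64% of all genes were higher and 1.14% lower. Dscam, a netrin-binding adhesion molecule, was at 7.07 in CCI and 7.65 in Sham (1.49-fold lower). The planar polarity cadherin Celsr3 was 1.41-fold and L1cam 1.37-fold lower. The netrin and RGM receptor Neo1 was at 8.13 in CCI and 8.35 in Sham. Of 43 signal transducers, such as the GTPases Rac1 and Rhoa and the collapsin response mediators, 26 were below Sham with a median of -0.02. Past 1.2-fold, 5 were lower and 1 higher, against 13.0% and 11.6% of all genes. Pak1, a kinase downstream of Rac1, was at 9.85 in CCI and 10.22 in Sham (1.29-fold lower), and Farp2, which links plexin-A to Rac, was 1.28-fold lower. Fes, a kinase of semaphorin signalling that is also abundant in myeloid cells, was at 5.42 in CCI and 5.03 in Sham (1.31-fold higher).

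Markers of several cell types moved in the same direction as the guidance genes. Of 15 neuron markers, 14 were below Sham, against 52.4% of all genes, with a median of -0.14. The summed linear signal of the neuron markers was 32513 in CCI and 36299 in Sham. Of 8 inhibitory neuron markers 6 were below Sham with a median of -0.24, and their sum was 2425 in CCI and 2917 in Sham. The lowest of them was the GABA-synthesising enzyme Gad1 (1.56-fold lower), whereas Npy and Pvalb were above Sham. Of 8 motor neuron markers 6 were below Sham (median -0.18), with a sum of 1606 in CCI and 1821 in Sham. The lowest of these was Chat (1.68-fold lower), whereas Prph and Calca were above Sham. The 9 excitatory neuron markers had a median of 0.14 and a sum of 1420 in CCI and 1456 in Sham.

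Among non-neuronal cells, endothelium and mural markers had a median of -0.32 (8 of 11 below Sham), with a sum of 2707 in CCI and 3011 in Sham. Of all genes, 52.4% were below Sham. Oligodendrocyte precursor markers had a median of -0.20 (6 of 8), with a sum of 3075 in CCI and 3270 in Sham. Meninges and fibroblast markers had a median of -0.14 (9 of 12), with sums of 2243 in CCI and 2239 in Sham. All 13 microglia markers were above Sham, against 8650 of all 18171 genes, with a median of 0.89. Their sum was 4631 in CCI and 2332 in Sham. Past 1.5-fold, 9 of them were higher, against 1.64% of all genes. Medians were 0.08 for 9 astrocyte, 0.07 for 11 oligodendrocyte and 0.15 for 7 Schwann cell markers. The sums were 19146 in CCI and 18322 in Sham for astrocytes, 26612 in CCI and 25471 in Sham for oligodendrocytes, and 1952 in CCI and 2089 in Sham for Schwann cells. No marker of the neuron, microglia or endothelium lists was under the receptor background level in both arrays. The part of these cell types in the differences of the guidance genes was not tested.

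**Figure D4:**
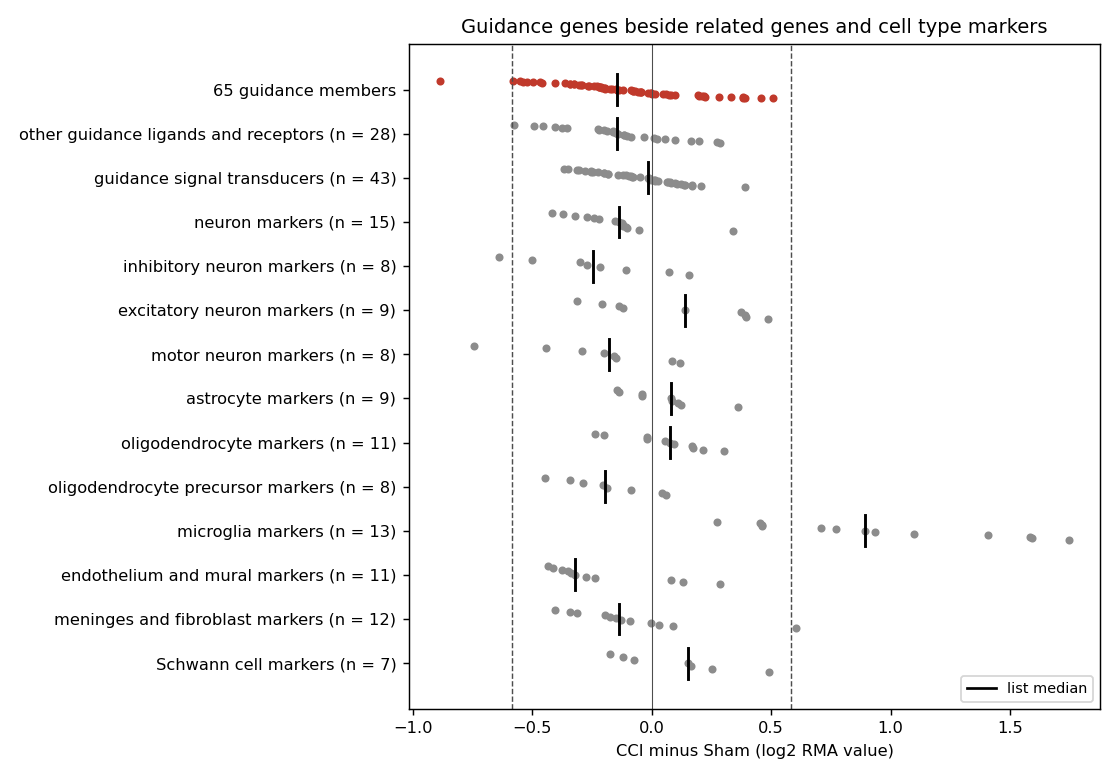
Differences (horizontal axis, CCI minus Sham, log2) of the 65 guidance genes, of related guidance genes and of cell type marker lists (vertical axis), with points for genes, bars for medians and dashed lines at 1.5-fold. The median is -0.14 for the guidance genes, for the neuron markers and for the meninges and fibroblast markers. It is 0.14 for the excitatory neuron markers, and the microglia markers lie highest (0.89).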

How the data were processed

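Total RNA of L4-L6 SC was hybridised to 2 Affymetrix Rat Gene 2.0 ST arrays, 1 per group and each of RNA mixed from 3 rats. The deposited values are log2 expression values, which the authors made by robust multi-array average (RMA) in R 3.1.1 with Bioconductor. RMA corrects background, equalises intensity distributions and summarises probes. It can understate folds of dim genes and would hide a shift common to most genes. The values were used as deposited. The genome build behind the probes is not given in the sources used here. The number of arrays limits the precision, and no spread between rats can be given.

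Of 28879 probe sets, 18511 carried exactly 1 gene in the platform annotation, and those were used. Symbols were updated by Entrez ID (18394 matched RefSeq, GRCr8), and the brightest probe set was kept per gene. Groups came from sample titles. Genes past 1.5-fold, the methods' fold threshold, were counted without its P value. A difference in which 1 value was under the receptor background was given as a bound. Members and gene lists were chosen with earlier results of these data known. Named genes were Ntng1, members past 1.5-fold, the 10 largest differences in each direction above background, the 2 brightest per family, their partners and up to 3 genes per list; any further gene was picked with its values in view. The 13 lists held 201 genes, of which 182 were measured. Alternatives were thresholds of 2-fold and 1.2-fold, a floor at the median level, subtraction of a lowess trend (span 0.3), averaged or separate probe sets, means for medians and, chosen after the data were seen, omission of Unc50 and Unc5cl. A median or gene difference was taken to move if it changed by 0.1 or more on the log2 scale. A count was taken to move if it changed by more than 1.5-fold, or from or to none. Summaries were tested on simulated data. Python 3.11.15, pandas 2.3.3, numpy 2.4.6 and statsmodels 0.14.6 were used.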

Additional observations from a re-analysis of the deposited data

How the results depend on the processing

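The call of Ntng1 held under the lowess trend (-0.84), but not at 2-fold, where 0 members were lower. Ntng1 has 1 probe set and a mean level of 6.18, above the floor of 5.83. The floor and the averaged or separate probe sets therefore could not change its call. At 1.2-fold 19 members were lower and 7 higher. With the floor at the median level, medians moved to -0.22 for Eph receptors, -0.16 for Robos, -0.26 for netrins and -0.89 for netrin-G, the last being Ntng1 alone. The medians of Robos (0.01) and netrins (0.08) thereby turned below Sham. The floor changed no gene's value, but left out Robo3, Robo4, Ntn3 and Ntn5, all above Sham. Only Robo1 and Robo2, and Ntn1 and Ntn4, remained. The median of the members was -0.10 with the trend subtracted, against 0.002 over all genes, and -0.22 over the 45 members left by the floor. Subtracting the trend changed no member by more than 0.06, but turned the sign of 6 members that were near 0 (Efna4, Efnb2, Sema4b, Sema4c, Unc5b and Unc50). After the subtraction 43 members were below Sham. The share of all genes below Sham was not computed for this setting. Omitting Unc50 and Unc5cl gave a median of -0.15. It could not change the counts past 1.5-fold, since neither gene passed that threshold. No paired analysis was possible because each group has 1 array.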

Other observations

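In the RefSeq gene order, Epha8 and Ephb2 stand on either side of the complement genes C1qb, C1qc and C1qa. The C1q genes had the largest differences of the 13 microglia markers, with C1qa at 9.38 in CCI and 7.64 in Sham (3.36-fold higher), C1qb at 9.26 in CCI and 7.67 in Sham (3.02-fold) and C1qc at 8.17 in CCI and 6.59 in Sham (3.00-fold). The Eph receptors beside them differed in direction. Epha8 was 1.42-fold higher, the largest difference above Sham of any guidance member, and Ephb2 was 1.27-fold lower. Whether the position bears on the Epha8 signal was not tested.

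The Slitrk genes, synaptic adhesion molecules of neurons whose names begin like Slit, were left out by the rule and were looked at after the guidance genes. Of 6 measured, 5 were below Sham, against 52.4% of all genes, with a median of -0.33. Past 1.2-fold, 4 were lower, against 13.0% of all genes. Slitrk5 was at 7.71 in CCI and 8.26 in Sham (1.45-fold lower), Slitrk3 at 6.85 in CCI and 7.25 in Sham, Slitrk6 at 6.02 in CCI and 6.42 in Sham, and Slitrk4 was at 5.73 in CCI and 5.56 in Sham.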
